A study of Mus musculus with 12 samples.

Results

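The genes described here are linked to the phosphorylation of the serine Ser273 of PPARγ, a nuclear receptor needed for fat cells to form. Cdk5 is a kinase of this site and Cdk5r1 (p35) is its activating subunit. Map2k1 (MEK1) and Map2k2 (MEK2) are the kinases that activate ERK, which also phosphorylates the site. Thrap3 is a nuclear protein that docks on the phosphorylated receptor. All probe sets mapped to exactly 1 of these symbols, or to Mapk3 (ERK1), were taken, which gave 12 of the 22690 probe sets on the array. They cover 5 of the 6 genes, out of 12393 genes named on the array, with 2 probe sets for Cdk5, 4 for Cdk5r1, 1 for Map2k1, 2 for Map2k2 and 3 for Thrap3. Mapk3 was not analysed here.

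Total RNA was measured on 12 single-colour arrays, 3 in each of 4 groups. All cells were mouse embryonic fibroblasts with a knockout of PPARgamma, labelled after 6 days of differentiation as adipocytes. One group had wild-type PPARγ put back (wild-type). Another had the mutant S273A, in which alanine replaces the serine, put back (S273A). The other two groups carried wild-type PPARγ and received 1 µM rosiglitazone or 1 µM MRL24 for 24 h. Rosiglitazone is a thiazolidinedione and full agonist of PPARγ, and MRL24 is a partial agonist that is not a thiazolidinedione. The labels do not say how PPARγ was introduced, whether the untreated cells received vehicle, or whether replicate arrays are separate cultures. The p-values measure variation among these arrays only, and that variation may be technical. Each receptor form came in 1 cell population as far as the labels say, so the mutation and other differences between the populations cannot be told apart.

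As background, Cdk5 has no activity without p35 or the related p39, and cleavage of p35 by calpain yields the more stable p25. In fat tissue of obese mice, inflammatory signals promote that cleavage, and Cdk5 then phosphorylates PPARγ at this serine and shifts the expression of a set of its target genes. Both kinds of PPARγ ligand used here block the phosphorylation. Cdk5 restrains MEK, and MEK and ERK reach the same serine where Cdk5 is missing. These events are on proteins, and the arrays measured only transcript levels.

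Promoters of Map2k1 and Thrap3, the 2 genes with a called difference in more than 1 comparison below, are shown so that the values can be read beside the DNA at their starts. Both are RefSeq windows of build GRCm38.p6 from 250 bases before to 50 bases after the annotated start, at chr9:64253556-64253855 on the minus strand for Map2k1 and chr4:126202661-126202960 on the minus strand for Thrap3. Capitals mark matches on either strand to the CRE half-site TGACG, the E-box CACGTG, the GC box GGGCGG and the CCAAT box CCAAT, none of which overlapped.
Map2k1: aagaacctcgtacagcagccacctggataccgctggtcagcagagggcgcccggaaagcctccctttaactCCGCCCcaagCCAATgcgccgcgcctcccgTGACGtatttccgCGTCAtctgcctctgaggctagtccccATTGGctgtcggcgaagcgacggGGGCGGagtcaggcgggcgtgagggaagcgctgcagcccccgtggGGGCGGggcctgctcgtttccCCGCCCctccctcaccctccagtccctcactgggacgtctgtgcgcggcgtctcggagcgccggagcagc
Thrap3: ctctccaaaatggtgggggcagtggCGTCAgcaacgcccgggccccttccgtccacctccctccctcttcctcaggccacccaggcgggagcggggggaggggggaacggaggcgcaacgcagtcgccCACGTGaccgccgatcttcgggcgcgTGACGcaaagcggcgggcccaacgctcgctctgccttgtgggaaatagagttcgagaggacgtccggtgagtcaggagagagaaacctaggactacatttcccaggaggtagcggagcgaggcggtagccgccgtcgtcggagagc

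The Map2k1 window held 4 GC boxes, 2 CRE half-sites and 2 CCAAT boxes. The Thrap3 window held 2 CRE half-sites and 1 E-box. Map2k2, at chr10:81105665-81105964 on the plus strand, held 2 GC boxes and no match to the other motifs. The PPAR half-site AGGTCA and the direct repeat of it with 1 base between the copies were not among the letters of any of the 3 windows. Of 32851 promoter windows of that length in the table, 16.3% held AGGTCA, 0.0396% the direct repeat, 20.8% TGACG, 7.15% CACGTG, 35.7% GGGCGG and 37.4% CCAAT. GC content was 69.0% for Map2k1, 67.0% for Thrap3 and 60.7% for Map2k2, against a median of 52.7% over all windows.

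Array medians lay between 296.8 and 314.9 intensity units. One array, wild-type replicate 2, lay away from the other 11, with a score of -24.96 on the first principal component (26.1% of the variance) against -7.15 to 11.7 on the others. Deviations from the group means had an SD of 0.154 (log2) on that array and of 0.096 to 0.128 elsewhere. The fibroblast markers were bright on all arrays, with all 7 of 7 above the filter on dim probe sets and a summed intensity of 91102 to 107998. Of 8 adipocyte markers 6 had a probe set, and Fabp4, Lpl and Cd36 were above the filter. The sum over all 6 was 11008 to 12777 in wild-type, 11916 to 12655 in S273A, 30080 to 30642 with rosiglitazone and 18140 to 18353 with MRL24. Most of it was Fabp4, at 8838 to 25308 over all arrays. Adipoq, a defining adipocyte gene, stayed at 37.3 to 143 on all arrays, below or near the level at which probe sets were tested. In such bulk RNA, fewer cells of a type and less RNA per cell cannot be told apart.

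Of the 12 member probe sets, 9 passed the filter, a mean intensity of 100.86 or more (the 30th percentile of all non-control probe sets). The 3 below it were Cdk5 1422590_at, with a mean of 7.35, and Cdk5r1 1421123_at and 1421124_at, with means of 42.3 and 87.4. The probe set just above the threshold was Cdk5r1 1433450_at, with a mean of 129.3. Log2 values below are of intensity plus 16, so differences of dim probe sets are understated. A difference was called at an adjusted p under 0.05 in limma's moderated test, with Benjamini-Hochberg adjustment over all 15838 probe sets tested. The plot of intensities by group shows every value of the 12 probe sets.

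**Figure D1:**
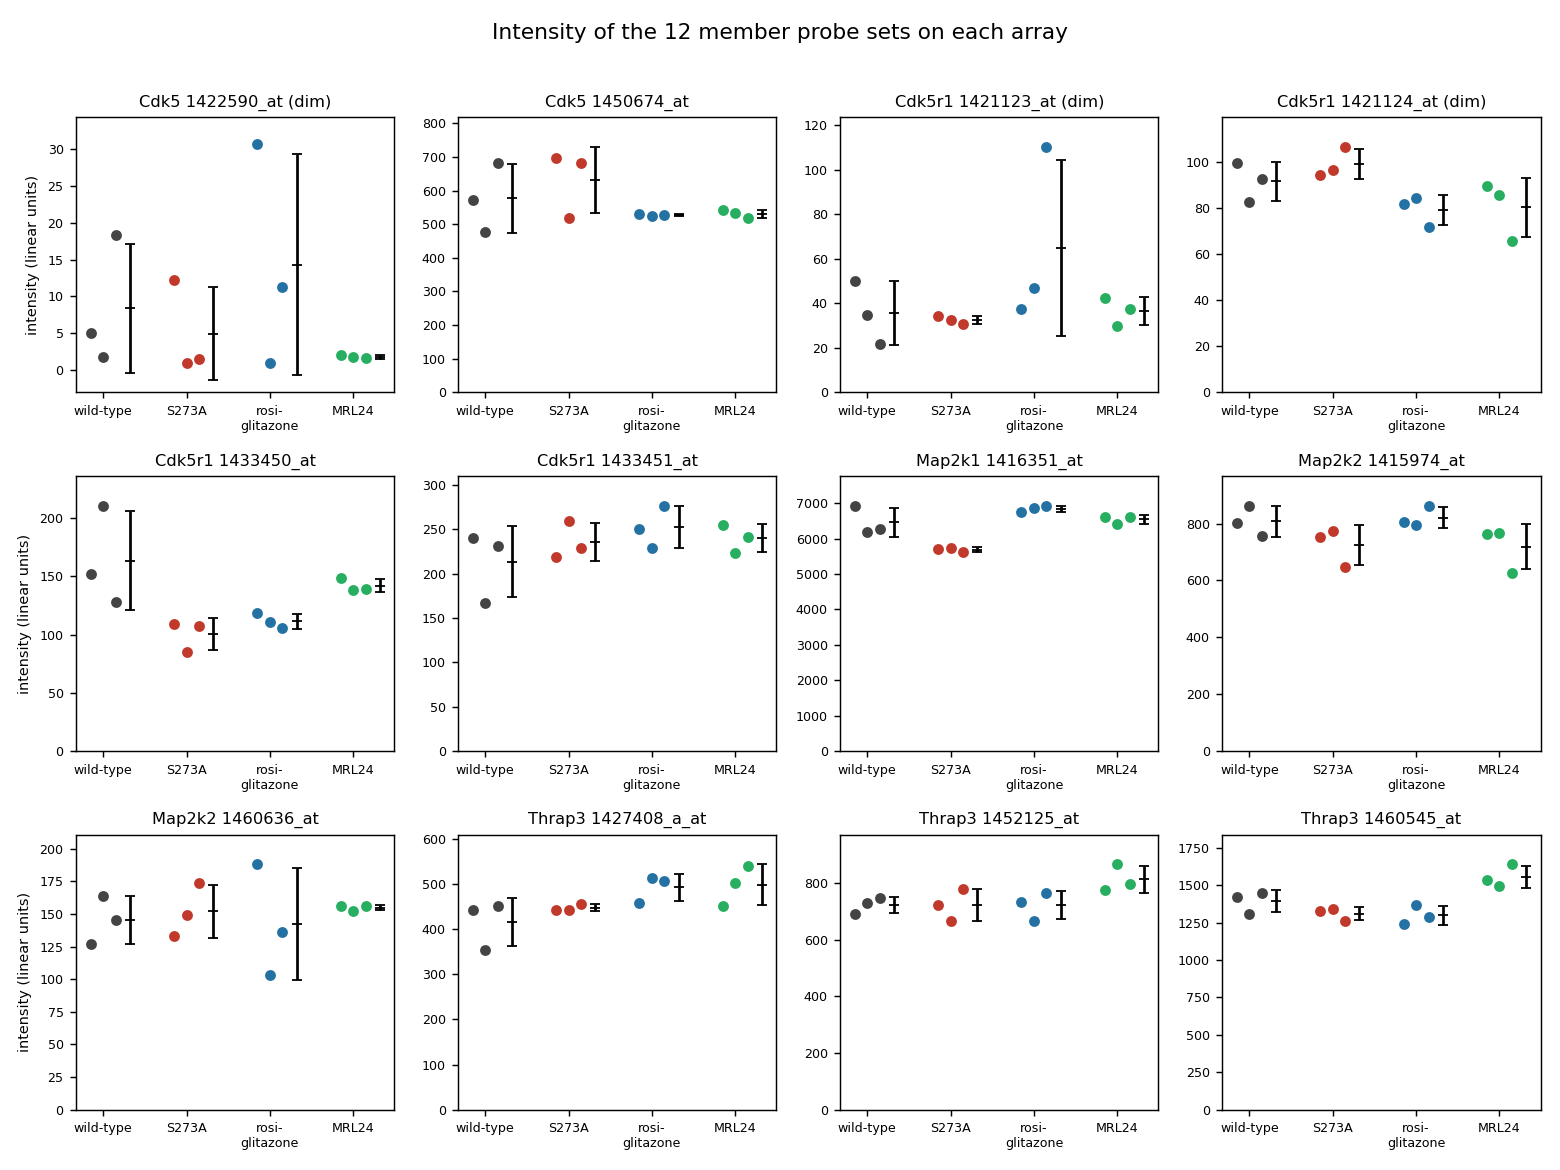
Intensity (linear units, axis from 0 or just below it) of the 12 member probe sets on each of the 12 arrays. Points are single arrays in the order of their replicate numbers, and black bars are the group mean ± SD (n = 3). The 3 S273A arrays of Map2k1 lie below all others, at 5607.5 to 5737, and the 3 MRL24 arrays of Thrap3 1460545_at lie above all others, at 1497 to 1638.

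PPARγ itself, the substrate, was read by Pparg 1420715_a_at. It read 941, 978 and 793 in wild-type cells, 1249, 1042 and 929.5 in S273A cells, 809, 773 and 919 with rosiglitazone, and 854, 822.5 and 861 with MRL24. S273A was 0.24 above wild-type on the log2 scale (SE 0.10, limma adjusted p = 0.17), with overlapping arrays. Against S273A both ligand groups were lower, by log2 -0.35 with rosiglitazone (adjusted p = 0.0394) and -0.33 with MRL24 (adjusted p = 0.0495). These calls are close to the threshold, and the lowest S273A array, 929.5, lay near the highest rosiglitazone array, 919. In limma's moderated F test over the 4 groups, Pparg was not called (adjusted p = 0.0566). The position of the probes against the deleted and the introduced parts of the gene was not analysed here, and the values are no check of the labels.

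Cdk5, the kinase, was read by 1450674_at. Intensities were 571, 477 and 683 in wild-type, 696, 519 and 681.5 in S273A, 532, 525.5 and 528 with rosiglitazone, and 543, 532.5 and 518 with MRL24. The untreated groups were spread over a wide range, and both ligand groups lay inside the range of the wild-type arrays. Means were 577 ± 103 in wild-type, 632 ± 98.4 in S273A, 528.5 ± 3.05 with rosiglitazone and 531 ± 12.7 with MRL24 (SD, n = 3). From high to low the order was S273A, wild-type, MRL24 and rosiglitazone, and no neighbours in it differed beyond their spread (adjusted p = 0.555, 0.619 and 0.986). S273A minus wild-type was 0.13 on the log2 scale (95% interval -0.12 to 0.38). Rosiglitazone minus S273A was -0.24 (adjusted p = 0.245) and MRL24 minus S273A was -0.23 (adjusted p = 0.223). The second Cdk5 probe set, 1422590_at, stood at 1 to 30.6, with 11 of the 12 arrays below 20 and 2 at exactly 1, so it carried no usable level.

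Cdk5r1 encodes p35, the subunit that switches Cdk5 on. Its probe set 1433450_at read 152, 211 and 128 in wild-type, 109, 84.7 and 108 in S273A, 118, 110.5 and 105.5 with rosiglitazone, and 148, 138 and 139 with MRL24. All 3 S273A arrays and all 3 rosiglitazone arrays lay below the 3 wild-type arrays, while the MRL24 arrays lay among them. S273A fell from 163.3 ± 42.7 to 100.5 ± 13.7 (SD, n = 3), a log2 change of -0.60 (SE 0.16, 95% interval -0.95 to -0.26, adjusted p = 0.0323). Rosiglitazone, at 111.4 ± 6.47, differed by -0.47 (adjusted p = 0.0857) and MRL24, at 141.9 ± 5.45, by -0.16 (adjusted p = 0.577). Downward from wild-type came MRL24, rosiglitazone and S273A, and neighbours did not pass the test (adjusted p = 0.577, 0.396 and 0.695).

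The call for 1433450_at leaned on single arrays and on the settings of the test. Without wild-type replicate 2, the array that stood apart, the difference was -0.42 (adjusted p = 0.134), and it also missed the threshold without wild-type replicate 1 (adjusted p = 0.055), S273A replicate 2 (0.132) or S273A replicate 3 (0.0608). With the replicate number as a block the adjusted p was 0.0504. With no filter on dim probe sets it was 0.0592, and in a fit to the wild-type and S273A arrays alone 0.127. The S273A mean, 100.5, lay below the filter of 100.86, and the probe set passed by its mean over all arrays, 129.3.

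Another Cdk5r1 probe set, 1433451_at, which the annotation ties to the same sequence record, gave another picture. It read 240.5, 167 and 231.5 in wild-type, 218, 259 and 228.5 in S273A, 250.5, 229 and 276.5 with rosiglitazone, and 255, 223 and 241.5 with MRL24. All groups overlapped. S273A minus wild-type was 0.15 (SE 0.13, adjusted p = 0.549), opposite in sign to the first probe set. Rosiglitazone, MRL24, S273A and wild-type followed in that order from high to low, with adjusted p = 0.865, 0.922 and 0.549 between neighbours. Across the 12 arrays the log2 values of the 2 probe sets had a Pearson r of -0.668, and of -0.791 after group means were removed. Wild-type replicate 2 was at once the brightest array of 1433450_at and the dimmest of 1433451_at. Averaging the 2 probe sets gave a log2 difference of -0.23 between S273A and wild-type, which was not called.

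**Figure D2:**
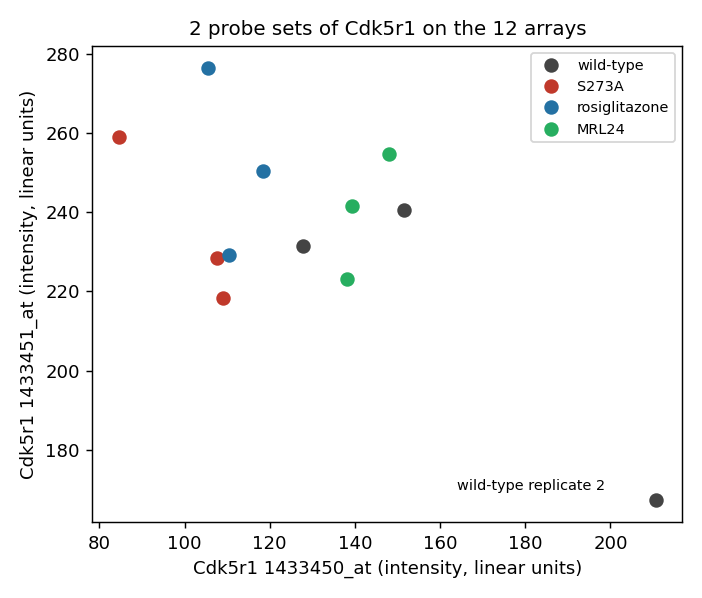
Intensities (linear units) of the 2 Cdk5r1 probe sets that passed the filter, 1433450_at on the x axis and 1433451_at on the y axis, with 1 point for each of the 12 arrays coloured by group. Wild-type replicate 2 lies alone at 211 and 167, and the S273A array at 84.7 is the one at 259.

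The 2 dim Cdk5r1 probe sets added little. 1421123_at lay between 21.6 and 50.2 on 11 arrays and at 110 on rosiglitazone replicate 3. 1421124_at read 94.1 to 106.4 in S273A and 71.5 to 84.0 with rosiglitazone, with wild-type at 82.5 to 99.4 and MRL24 at 65.6 to 89.6. Neither had a called difference when the filter was dropped. Neuronal cells are the classic site of p35 expression. Of 9 neuronal markers 5 passed the filter, and their sum over all 9 was 1051 to 1080 in wild-type, 1113 to 1198 in S273A, 1067 to 1118 with rosiglitazone and 1106 to 1168 with MRL24. Those that passed were Gap43 at 209 to 289, Map2 at 175 to 306, Syp at 164.5 to 277, Snap25 at 91.2 to 147 and Stmn2 at 72.2 to 134. The neuronal markers below the filter were Tubb3 at 65.5 to 114, Nefm at 31.8 to 83.4, Rbfox3 at 12.3 to 47.4 and Nefl at 1 to 10.6. The part of other cells in the p35 signal was not tested.

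Map2k1 encodes MEK1, which phosphorylates and activates ERK. Its single probe set, 1416351_at, was bright, and read 6928, 6182 and 6264 in wild-type, 5714, 5737 and 5607.5 in S273A, 6743, 6859 and 6909 with rosiglitazone, and 6613, 6401 and 6604 with MRL24. All 3 S273A arrays were below all 9 other arrays, a pattern shown by 4.87% of the tested probe sets. Rosiglitazone and MRL24 arrays did not overlap each other, and both groups overlapped the wild-type range. Means were 6458 ± 409 in wild-type, 5686 ± 69.1 in S273A, 6837 ± 85.3 with rosiglitazone and 6539 ± 119.8 with MRL24.

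Against wild-type, Map2k1 fell with S273A by 0.18 on the log2 scale (SE 0.04, 95% interval -0.27 to -0.09, adjusted p = 0.0155), a 1.134-fold lower level. Neither ligand group passed the test against wild-type. Rosiglitazone minus wild-type was 0.08 (adjusted p = 0.243) and MRL24 minus wild-type was 0.02 (95% interval -0.07 to 0.11, adjusted p = 0.813). Against S273A it was higher by 0.27 with rosiglitazone (95% interval 0.17 to 0.36, adjusted p = 0.000723) and by 0.20 with MRL24 (0.11 to 0.29, adjusted p = 0.00825). These comparisons share arrays, so they are not independent of one another. The order was rosiglitazone, MRL24, wild-type and S273A, and the last step was the only one between neighbours that passed (adjusted p = 0.527, 0.813 and 0.0155).

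Leaving out any 1 array kept the calls of both ligand groups against S273A, with adjusted p from 0.000132 to 0.00556 for rosiglitazone and from 0.00167 to 0.0423 for MRL24. The call against wild-type was lost without wild-type replicate 1 (log2 -0.13, adjusted p = 0.0588) and without S273A replicate 3 (-0.17, adjusted p = 0.059). It was also lost in a fit to those 6 arrays alone (adjusted p = 0.111) and without the trend of the spread on intensity (0.0676). Without wild-type replicate 2 the difference was -0.21 (adjusted p = 0.00503).

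Map2k2 encodes MEK2, the close relative of MEK1. Its brighter probe set, 1415974_at, read 801, 863 and 758 in wild-type, 754.5, 773.5 and 646 in S273A, 805, 794.5 and 862.5 with rosiglitazone, and 763, 766 and 627 with MRL24. The rosiglitazone arrays all lay above those of S273A and MRL24. Rosiglitazone minus MRL24 was 0.19 (95% interval 0.0048 to 0.38, unadjusted p = 0.045, adjusted p = 0.32), so it did not pass. S273A minus wild-type was -0.16 (95% interval -0.34 to 0.03, adjusted p = 0.325), an interval that contains the value measured for Map2k1. The order was rosiglitazone, wild-type, S273A and MRL24, with adjusted p = 0.903, 0.325 and 0.947 between neighbours. The other Map2k2 probe set, 1460636_at, ranged from 103 to 188 with all 4 groups overlapping and differences of -0.14 to 0.09 on the log2 scale, none called.

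Thrap3 was read by 3 probe sets, all above the filter. The brightest, 1460545_at, gave 1424, 1310.5 and 1449 in wild-type, 1326, 1344 and 1262 in S273A, 1241, 1366 and 1289 with rosiglitazone, and 1532, 1497 and 1638 with MRL24. All 3 MRL24 arrays were above all 9 others, as was the case for 3.48% of the tested probe sets. The remaining 3 groups overlapped. Means were 1394 ± 73.8, 1310.4 ± 43.0, 1299 ± 63.2 and 1556 ± 73.3 in the same order of groups.

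Between the ligands, at the same dose and time, Thrap3 1460545_at was lower with rosiglitazone than with MRL24 by 0.26 on the log2 scale (SE 0.06, 95% interval -0.39 to -0.13, adjusted p = 0.0342). MRL24 was above S273A by 0.24 (95% interval 0.12 to 0.37, adjusted p = 0.0196). Against wild-type the MRL24 difference was 0.16 (SE 0.06, adjusted p = 0.116) and the rosiglitazone difference was -0.10 (adjusted p = 0.331). The order was MRL24, wild-type, S273A and rosiglitazone, with adjusted p = 0.116, 0.433 and 0.93 between neighbours. The difference between the ligands lost its call without any 1 of the 6 ligand arrays (adjusted p = 0.0501 to 0.182), with the replicate number as a block (0.066) and without the trend (0.0711). The call against S273A was lost without S273A replicate 3 (adjusted p = 0.0739), MRL24 replicate 1 (0.0502) or MRL24 replicate 3 (0.0972).

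The other Thrap3 probe sets had no called difference. 1452125_at read 691, 730.2 and 747 in wild-type, 721, 664 and 779.7 in S273A, 733, 666 and 763 with rosiglitazone, and 774, 864.5 and 797 with MRL24. Its MRL24 arrays lay above those of wild-type and rosiglitazone, with a difference of 0.16 from wild-type (adjusted p = 0.183) and of -0.17 for rosiglitazone minus MRL24 (adjusted p = 0.305). 1427408_a_at read 443, 354 and 451 in wild-type, 443, 442 and 456 in S273A, 458, 513 and 507 with rosiglitazone, and 451, 503 and 541 with MRL24. Here both ligand groups were above wild-type, by 0.24 with rosiglitazone (adjusted p = 0.127) and 0.26 with MRL24 (adjusted p = 0.102), and rosiglitazone minus MRL24 was -0.01 (adjusted p = 0.965). The Pearson r between pairs of the 3 probe sets was 0.302 to 0.399 over the 12 arrays. With all 3 averaged, rosiglitazone minus MRL24 was -0.15 (adjusted p = 0.214), and MRL24 minus S273A was 0.19 (adjusted p = 0.0512).

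The 9 tested probe sets can also be read by comparison, as the plot of differences does. For S273A against wild-type, 2 were called lower (Cdk5r1 1433450_at and Map2k1) and 0 higher, where 5.13% of all tested probe sets were called lower, 2.58% higher and 7.71% in either direction. Arrays of the 2 groups did not overlap for those 2 probe sets, against 23.2% of all. The median absolute log2 difference was 0.13 over the 9, and 0.098 over all tested probe sets.

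For rosiglitazone against wild-type, limma called 0 of the 9, with 2 at an unadjusted p under 0.05, where 9.24% of all tested probe sets were called, 5.03% higher and 4.21% lower. Arrays did not overlap for 2 of the 9, Cdk5r1 1433450_at and Thrap3 1427408_a_at, against 26.5% of all. For MRL24 against wild-type, limma also called 0, with 3 at an unadjusted p under 0.05, all of them Thrap3, where 8.44% of all were called, 5.76% higher and 2.67% lower. Arrays did not overlap for 2, both Thrap3, against 30.3%. These shares of non-overlap are close to those of the whole table, and the median absolute differences were 0.10 and 0.16, against 0.10 and 0.11 over all.

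Between rosiglitazone and MRL24, 1 of the 9 was called, Thrap3 1460545_at, lower with rosiglitazone, where 2.25% of all were called, 0.979% lower and 1.27% higher. This was the only pair of compounds, so the adjustment is over probe sets. Arrays did not overlap for 5 of the 9, against 25.9% of all. Rosiglitazone was higher in Map2k1 and Map2k2 1415974_at, and lower in Cdk5r1 1433450_at, Thrap3 1452125_at and Thrap3 1460545_at. For Cdk5, the interval of the difference ran from -0.25 to 0.24.

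Against S273A, rosiglitazone had 1 call, Map2k1, higher, where 8.67% of all were called, 5.34% higher and 3.33% lower. MRL24 had 2 calls, Map2k1 and Thrap3 1460545_at, both higher, where 10.1% were called, 6.87% higher and 3.28% lower. Arrays did not overlap for 3 of the 9 in each, against 28.3% and 33.6% of all. In the moderated F test over the 4 groups, 3 of the 9 were called, Map2k1 (adjusted p = 0.00233), Thrap3 1460545_at (0.0199) and Cdk5r1 1433450_at (0.0422), where 18.7% of all were called.

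**Figure D3:**
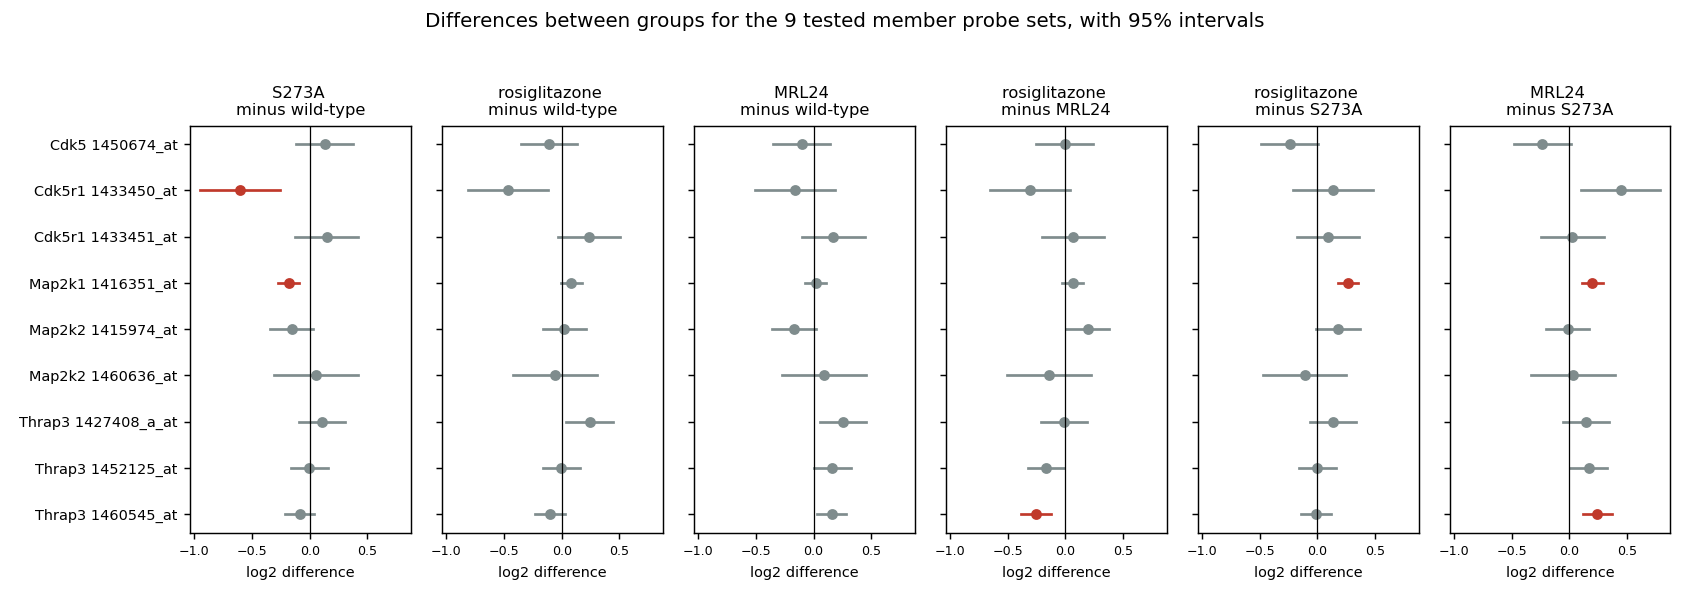
Log2 differences (x axis) with 95% intervals of the 9 tested member probe sets (y axis) in the 6 comparisons, each over 3 arrays against 3. Red marks an adjusted p under 0.05, and grey the others. Map2k1 is lower with S273A by 0.18 and higher with both ligands against S273A, and Thrap3 1460545_at is lower with rosiglitazone than with MRL24 by 0.26.

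Genes around these members were taken from 7 lists of 73 genes, of which 63 were tested by their brightest probe set. Counts are higher and lower calls. They came to 1 and 8 for S273A against wild-type, 5 and 7 for rosiglitazone, 6 and 3 for MRL24, and 0 and 1 for rosiglitazone against MRL24. Against S273A they came to 6 and 0 for rosiglitazone and 10 and 0 for MRL24. The background of these counts is the share of all tested probe sets called higher and lower. It was 2.58% and 5.13% for S273A against wild-type, 5.03% and 4.21% for rosiglitazone, and 5.76% and 2.67% for MRL24. For rosiglitazone against MRL24 it was 1.27% and 0.979%. Against S273A it was 5.34% and 3.33% for rosiglitazone and 6.87% and 3.28% for MRL24.

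Among Cdk5 partners, which include the calpains that cleave p35 and their inhibitor calpastatin, 7 of 9 were tested. The Cdk5-binding centrosome protein Cdk5rap2 fell from 217 ± 23.4 to 132 ± 15.1 with S273A (log2 -0.65, adjusted p = 0.0157). This was the only call of that comparison, where 5.13% of all tested probe sets were called lower. It missed the threshold without wild-type replicate 3 (0.0521) or S273A replicate 2 (0.0701). Capn2, the large subunit of m-calpain, rose with rosiglitazone, from 4374 ± 107 to 4911 ± 202 (0.17, adjusted p = 0.0261), and was 0.24 above S273A (adjusted p = 0.0024). The first of these calls was lost without wild-type replicate 3 (adjusted p = 0.0702), rosiglitazone replicate 1 (0.0693) or rosiglitazone replicate 3 (0.114). With MRL24, Capn2 differed from wild-type by 0.07 (adjusted p = 0.334), and the difference between the ligands was 0.10 (adjusted p = 0.316).

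In the RAS and ERK cascade upstream and downstream of MEK, 13 of 18 genes were tested. With S273A 2 fell, Rps6ka3 and Rasa1, where 5.13% of all tested probe sets were called lower. Rps6ka3 (RSK2), a kinase that ERK activates, went from 582 ± 107.5 to 389.5 ± 20 (log2 -0.55, adjusted p = 0.00303), but its other 2 probe sets differed by 0.03 and 0.05, and the mean of all 3 by -0.15 (adjusted p = 0.312). The counted probe set was picked as the brightest by its mean over all arrays, which includes its high wild-type level. Another Rps6ka3 probe set read 470 in wild-type and 480 in S273A, so the Rps6ka3 calls counted here rest on that pick. Rasa1, a GTPase-activating protein that turns RAS off, differed by -0.27 (adjusted p = 0.029), and by -0.20 without wild-type replicate 2 (adjusted p = 0.0932). It also missed the threshold without wild-type replicate 1 (0.0611), S273A replicate 1 (0.0666) or S273A replicate 2 (0.124). With rosiglitazone the same probe sets fell, by 0.32 for Rasa1 (adjusted p = 0.00898) and by 0.34 for Rps6ka3 (adjusted p = 0.0436). The Rps6ka3 call was lost without wild-type replicate 2 (-0.19, adjusted p = 0.162), and also without S273A replicate 1 or 2 or any 1 rosiglitazone or MRL24 array (adjusted p = 0.0537 to 0.113). The other 2 Rasa1 probe sets were not called, at -0.18 and -0.07 with S273A (adjusted p = 0.0966 and 0.828) and -0.15 and -0.03 with rosiglitazone (adjusted p = 0.165 and 0.917). The mean of all 3 was -0.17 in both comparisons, with no call (adjusted p = 0.11 and 0.113). Pebp1, an inhibitor of this cascade, rose by 0.19 with rosiglitazone (adjusted p = 0.00358), and by 0.19 on a second probe set (adjusted p = 0.00492). With MRL24 limma called 0 of the 13 against wild-type, where 8.44% of all tested probe sets were called. Against S273A, Rps6ka3 was 0.36 higher with MRL24 (adjusted p = 0.0301), a call lost without any 1 S273A or MRL24 array (0.058 to 0.105), and the mean of its 3 probe sets differed by 0.17 (adjusted p = 0.21).

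Genes that ERK signalling induces, among them its own feedback inhibitors, had 16 of 18 tested. With S273A 4 fell and 1 rose, where 5.13% and 2.58% of all probe sets did. The median log2 difference of the 16 was -0.14, against -0.004 over all probe sets. The list was chosen with earlier results of these data known. Its genes were read by their brightest probe sets, while the shares cover all tested probe sets, so the counts are no test of the list. Spred2 and Spred1, which hold back ERK activation, fell by 0.59 (2746 to 1815, adjusted p = 1.14e-05) and 0.40 (1802 to 1363, adjusted p = 0.000529). Dusp6, the phosphatase that inactivates ERK, fell by 0.34 (2553 to 2011, adjusted p = 0.00762). Egr1, an immediate early transcription factor, fell by 0.29 (4261.5 to 3491, adjusted p = 0.00114). Dusp1, another MAP kinase phosphatase, rose by 0.33 (4992 to 6271, adjusted p = 0.000222). The 5 calls held without any 1 of the 12 arrays, with adjusted p of at most 0.000145, 0.0037, 0.0433, 0.00777 and 0.00189 in that order. In a fit to the 6 wild-type and S273A arrays alone, the Dusp6 call was lost (adjusted p = 0.0654).

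Probe sets of these genes did not all move alike. The other 2 probe sets of Spred1 also fell with S273A, by 0.37 and 0.36 (adjusted p = 0.0116 and 0.0115). A second probe set of Spred2 differed by -0.01 (992 and 997, adjusted p = 0.968). Fos and Myc, also induced by ERK, differed by -0.02 each (adjusted p = 0.906 and 0.931). Macrophage markers had a summed level of 2234 to 2765 in wild-type and 2918 to 3062 in S273A. Of the 6, 3 were above the filter, Csf1r at 1297 to 2010, Cd68 at 459 to 878 and Adgre1 at 137 to 285 over all arrays. The 3 below it were Lyz2, Ptprc and Itgam, at 1 to 24.5, 10.8 to 63.4 and 20.5 to 89.4. Fibroblast markers summed to 95230 to 104804 in wild-type and 91102 to 96309 in S273A. The part of either in these differences was not tested.

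Of the 16 genes of the ERK list, 2 rose and 4 fell against wild-type with rosiglitazone, and 2 rose and 3 fell with MRL24. Over all tested probe sets 5.03% rose and 4.21% fell with rosiglitazone, and 5.76% rose and 2.67% fell with MRL24. Spry2 and Phlda1 fell with both, Spry2 by 0.37 with rosiglitazone and 0.36 with MRL24 (adjusted p = 0.00157 and 0.00476) and Phlda1 by 0.40 and 0.31 (adjusted p = 0.00101 and 0.0109). Their S273A arrays also lay below those of wild-type, by 0.19 each, without passing the test (adjusted p = 0.0847 and 0.0904). Sprouty 2 is a feedback inhibitor of receptor tyrosine kinase signalling. Its dimmer probe set differed by -0.02 and 0.20, with no call, and the mean of both probe sets by -0.19 and -0.08 (adjusted p = 0.191 and 0.609). Spry4 rose by 0.57 and 0.45 (adjusted p = 0.0125 and 0.0482), and by 0.66 and 0.55 on a second probe set. The MRL24 call on the first probe set held only without MRL24 replicate 2, and was lost without any other single array (adjusted p = 0.0526 to 0.172). The rosiglitazone call was lost without rosiglitazone replicate 2 (0.0501), the Phlda1 call with MRL24 without MRL24 replicate 2 (0.0551), and the Dusp1 call with MRL24 below without MRL24 replicate 3 (0.0662). Dusp1 rose with rosiglitazone by 0.28 (adjusted p = 0.000567) and with MRL24 by 0.20 (adjusted p = 0.0116). Spred2 fell by 0.24 with each ligand (adjusted p = 0.014 and 0.0194). These calls were lost without rosiglitazone replicate 1 (0.0686) or 2 (0.0573), and without wild-type replicate 2 (0.0685), MRL24 replicate 2 (0.0942) or MRL24 replicate 3 (0.0579). The second Spred2 probe set rose by 0.24 with MRL24 (adjusted p = 0.0414). With the Spred2 probe sets averaged, the difference from wild-type was -0.059 with rosiglitazone (adjusted p = 0.511) and -0.002 with MRL24 (adjusted p = 0.985). Egr1 fell with rosiglitazone by 0.16 (adjusted p = 0.0436), a call lost without wild-type replicate 1 (0.0922) or 2 (-0.12, adjusted p = 0.119), S273A replicate 2, or any 1 rosiglitazone or MRL24 array (0.0565 to 0.119). Spred1 differed from wild-type by 0.06 and 0.08 (adjusted p = 0.548 and 0.415) and was above S273A by 0.46 and 0.48 (adjusted p = 7.27e-05 and 0.000117). Dusp6 was above S273A by 0.28 with rosiglitazone (adjusted p = 0.0228) and 0.43 with MRL24 (adjusted p = 0.00174). The rosiglitazone call was lost without S273A replicate 3 (0.109) or any 1 rosiglitazone array (0.0551 to 0.0809). Spred2 was above S273A by 0.35 with each ligand (adjusted p = 0.00077 and 0.00151). Egr1 was above it by 0.20 with MRL24 (adjusted p = 0.0115), a call lost without S273A replicate 3 (0.0521) or MRL24 replicate 2 (0.0606). Spry1, another sprouty inhibitor, was 0.51 above S273A with MRL24 (adjusted p = 0.0427). That call was lost without S273A replicate 2 or 3, rosiglitazone replicate 2 or any 1 MRL24 array (0.0561 to 0.145), with no filter (0.106) and without the trend (0.0921). Between the ligands limma called 0 of the 16, where 2.25% of all tested probe sets were called. As the 3 comparisons with wild-type share its arrays, their values are given side by side and were not correlated.

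**Figure D4:**
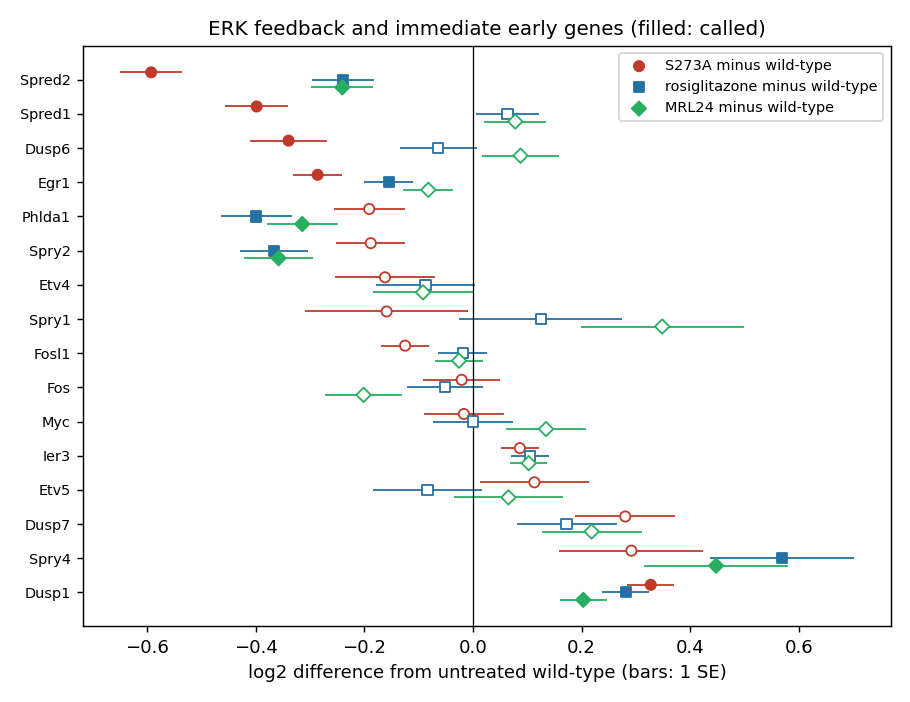
Log2 differences from untreated wild-type (x axis, bars of 1 SE, 3 arrays against 3) for the 16 tested genes of the ERK feedback and immediate early list (y axis, brightest probe set of each). Circles are S273A, squares rosiglitazone and diamonds MRL24, and filled symbols have an adjusted p under 0.05. Spred2, Spred1, Dusp6 and Egr1 are lowest with S273A, at -0.59 to -0.29.

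Among splicing partners of Thrap3, which sits in complexes that process messenger RNA, all 9 were tested. With MRL24 3 rose against wild-type, Srsf1, Ddx5 and Srrm2, where 5.76% of all tested probe sets were called higher. Srsf1, a serine and arginine rich splicing factor, rose from 1594 ± 27.7 to 2121 ± 30.9 (log2 0.41, adjusted p = 0.00149), and this call held without any 1 array. It was 1661 ± 70.1 with rosiglitazone, 0.35 below MRL24 (adjusted p = 0.00301). In S273A it was 1369 ± 101, 0.63 below MRL24 (adjusted p = 1.21e-05). Of the 6 Srsf1 probe sets, all 6 were called higher with MRL24 than with S273A, 3 were called higher with MRL24 than in wild-type, and 2 were called lower with rosiglitazone than with MRL24. The RNA helicase Ddx5 rose by 0.13 (adjusted p = 0.0407) and the splicing coactivator Srrm2 by 0.28 (adjusted p = 0.0284), and both calls were lost without wild-type replicate 2 (adjusted p = 0.0636 and 0.103). The Ddx5 call was also lost without wild-type replicate 1 or 3, S273A replicate 2, rosiglitazone replicate 2 or any 1 MRL24 array (0.0509 to 0.149). With the Ddx5 probe sets averaged the difference was 0.12 (adjusted p = 0.141), and without the trend the adjusted p was 0.124. For Srrm2, leaving out wild-type replicate 3 (0.0657) or MRL24 replicate 2 or 3 (0.1 and 0.136) also ended the call. Above S273A with MRL24 were also Ddx5 by 0.19 (adjusted p = 0.00428) and Srrm2 by 0.38 (adjusted p = 0.00433). Above S273A with rosiglitazone were Srsf1 by 0.28 (adjusted p = 0.00628) and Ddx5 by 0.13 (adjusted p = 0.0368). The latter call was lost without S273A replicate 2 or 3 or any 1 ligand array (0.0517 to 0.156), and the mean of the Ddx5 probe sets differed by 0.08 (adjusted p = 0.372). With rosiglitazone limma called 0 of the 9 against wild-type, where 9.24% of all tested probe sets were called. With S273A it called 1, Srsf1, at -0.22 (adjusted p = 0.0298), where 5.13% of all were called lower. That call was lost without wild-type replicate 1 (0.0715), wild-type replicate 2 (0.0518) or S273A replicate 3 (0.127).

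Of 6 tested Mediator subunits, the coactivator complex Thrap3 was first found with, limma called 0 in the 3 comparisons with wild-type. Of all tested probe sets, 7.71% were called for S273A, 9.24% for rosiglitazone and 8.44% for MRL24, so 0 of 6 is no result about the list. Med1, which contacts nuclear receptors, was 0.31 higher with MRL24 than with S273A (adjusted p = 0.0191), while its 4 other probe sets differed by -0.01 to 0.16. The call was lost without S273A replicate 1 (0.0789), MRL24 replicate 2 (0.0649) or MRL24 replicate 3 (0.0808). Of 6 kinases and cyclins linked to the other phosphorylated serine of PPARγ, Ccnt2 was lower with rosiglitazone by 0.30 (adjusted p = 0.0164). The mean of its 3 probe sets differed by -0.11 (adjusted p = 0.368). It was a call lost without wild-type replicate 1 (0.0527), rosiglitazone replicate 1 (0.0702) or rosiglitazone replicate 2 (0.0706). Of 6 further cyclin-dependent kinases, Cdk16 was higher with rosiglitazone by 0.22 (adjusted p = 0.0228) and with MRL24 by 0.19 (adjusted p = 0.0482). The mean of all 4 Cdk16 probe sets differed by 0.07 and 0.09 (adjusted p = 0.448 and 0.327). Both Cdk16 calls were lost without wild-type replicate 2 (0.15, adjusted p = 0.0659, and 0.12, adjusted p = 0.172). The rosiglitazone call was also lost without rosiglitazone replicate 1 or 2 (0.0704 and 0.0975), and the MRL24 call without S273A replicate 1 or 2 or any 1 ligand array (0.0564 to 0.176).

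The genes whose levels ran most like each member over the 12 arrays were named by Pearson r of log2 values. The member's brightest probe set was set against every tested probe set mapped to exactly 1 symbol of another gene. Each other gene was taken at its most alike probe set. For Map2k1 they were Bhlhe40 (0.970), Scd2 (0.958) and Lasp1 (0.947). For Thrap3 they were Thbs1 (0.924), Tspan5 (0.904) and Klf2 (0.904), and for Map2k2 Klf9 (0.937), Uqcrc2 (0.895) and Cdk16 (0.884). Cdk5r1 1433451_at was most like Spryd4 (0.922), Gh (0.916) and Cd2ap (0.916), and Cdk5 most like Ywhaz (0.850), Gpd1 (0.844) and Spata5 (0.827). These values are picked as the highest of all tested genes and describe these arrays, in which the points share groups and scaling.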

How the data were processed

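Total RNA of 12 samples was labelled with biotin per the labels' protocols. The authors deposited 1 table with an intensity per probe set and array on a linear scale, taken as already normalized because array medians lie within 296.8 to 314.9. The method of normalization was not given in the sources used here. Every column was used (0 left out). Of 22690 probe sets, 64 were controls, 20380 had 1 gene symbol in the platform annotation, 691 several and 1555 none.

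Values were tested as log2(intensity + 16). Probe sets with a mean under the 30th percentile (100.86) were left out, which left 15838. One model of the 4 groups over the 12 arrays was fitted with limma 3.58.1 in R 4.3.3 (lmFit, eBayes with a trend), with 8 residual degrees of freedom, 7.76 prior ones and a residual SD of 0.104 at the median. The number of arrays limits the precision. A call was a Benjamini-Hochberg adjusted p, over all tested probe sets, under 0.05. The code was tested on simulated data. Tables and figures used python 3.11.15, pandas 2.3.3, numpy 2.4.6 and matplotlib 3.10.9.

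Members were named in full. From each list of pathway genes up to 4 called genes per comparison, by adjusted p, were to be named. Further called genes named beyond these were added after their values were seen. From the likeness ranking the first 3 genes per member were named. Members and lists were chosen with earlier results of these data known. Identical arrays were looked for and 0 pairs found. Alternatives were the pseudocount (1, 64), the filter (none, 50th percentile), median or quantile scaling, array weights, a fit to the 6 arrays compared, a replicate block, no trend, 1 value per gene, and each array left out.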

Additional observations from a re-analysis of the deposited data

How the results depend on the processing

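The labels do not say that replicate numbers pair the arrays, and deviations of same-numbered arrays had a median correlation of -0.015 (range -0.115 to 0.124 over 18 pairs). With the replicate block, the probe sets called among the 9 tested were 1 for S273A against wild-type and 0 for rosiglitazone against MRL24, and 1017 in place of 1221 and 280 in place of 356 over all probe sets. For S273A against wild-type, where 2 were called, the count was 1 with no filter, the 50th percentile filter, no trend (which lost Map2k1), the brightest probe set or the mean of a gene, and 0 in the fit to 6 arrays. For rosiglitazone against MRL24 it was 0 without the trend and with gene means. For MRL24 against S273A and for any difference gene means gave 1 and 1. Leaving out 1 array gave 0 to 2 for S273A against wild-type, 0 to 1 for rosiglitazone against wild-type, 0 to 1 for rosiglitazone against MRL24, 1 to 3 for MRL24 against S273A and 1 to 3 for any difference. Over all probe sets, the fit to 6 arrays called 415 for S273A against wild-type, 734 of 1463 for rosiglitazone against wild-type, 415 of 1336 for MRL24 against wild-type and 1006 against 356 between the ligands. Array weights called 1105 between the ligands and 2647 in place of 1607 for MRL24 against S273A. For MRL24 against wild-type, no filter gave 727 and no trend 708, and no trend also gave 210 between the ligands and 1040 for MRL24 against S273A. With 1 value per gene, which left 9154 to test, the counts for S273A, rosiglitazone and MRL24 against wild-type were 654, 723 and 504 by the brightest probe set and 690, 826 and 557 by the mean. The brightest probe set gave 229 between the ligands, and 809 in place of 1373 and 847 for rosiglitazone and MRL24 against S273A, and the mean gave 971 for the latter. Leaving out 1 array gave 723 to 1227, 752 to 1611 and 322 to 1784 for the 3 comparisons with wild-type, 160 to 865 between the ligands, and 866 to 1988 and 654 to 2498 against S273A. Of the 47 calls of pathway genes, 16 were lost without the trend, 16 in the fit to 6 arrays, 15 with gene means, 7 with the same median, 7 with no filter, 6 with the replicate block, 5 with quantile normalization, 3 with array weights, 3 with the brightest probe set and 0 with either other pseudocount. The 50th percentile filter kept 44 to test and lost 0. The signs that turned were of differences of members that were not called. With gene means, Cdk5r1 1433451_at was at -0.23 for S273A against wild-type, -0.11 for rosiglitazone against wild-type and -0.12 between the ligands, Map2k2 1415974_at at -0.0158 for rosiglitazone against wild-type and 0.0094 for MRL24 against S273A, and Thrap3 1460545_at at 0.0053, 0.0453 and 0.04 for S273A against wild-type and rosiglitazone against wild-type and S273A. Each is then the mean over that gene's probe sets. With arrays set to the same median, and with quantile normalization, S273A against wild-type was 0.0165 and 0.0159 for Thrap3 1452125_at, and the ligands differed by 0.0070 and 0.0132 for Cdk5 and 0.0002 and 0.0034 for Thrap3 1427408_a_at. MRL24 against S273A was then -0.0175 and -0.0262 for Cdk5r1 1433451_at and -0.0125 and -0.0204 for Map2k2 1460636_at. For Map2k1, MRL24 against wild-type was -0.0044 with the same median and -0.0187 with array weights. Array weights also gave Thrap3 1452125_at 0.0065 and 0.016 for rosiglitazone against wild-type and S273A, and Cdk5r1 1433451_at -0.0025 for MRL24 against S273A. Leaving out 1 array turned the sign of these log2 differences. For MRL24 against wild-type the ranges were -0.23 to 0.0238 for Cdk5 1450674_at, -0.30 to 0.0238 for Cdk5r1 1433450_at and -0.0109 to 0.0711 for Map2k1 1416351_at. For rosiglitazone against MRL24 the ranges were -0.0244 to 0.0089 for Cdk5 1450674_at, -0.34 to 0.0457 for Map2k2 1460636_at and -0.0812 to 0.0455 for Thrap3 1427408_a_at. For rosiglitazone against wild-type the ranges were -0.23 to 0.0170 for Cdk5 1450674_at, -0.0200 to 0.0720 for Map2k2 1415974_at, -0.25 to 0.13 for Map2k2 1460636_at and -0.0460 to 0.0496 for Thrap3 1452125_at. For MRL24 against S273A the ranges were -0.0217 to 0.0939 for Cdk5r1 1433451_at, -0.0924 to 0.0802 for Map2k2 1415974_at and -0.0496 to 0.12 for Map2k2 1460636_at. For S273A against wild-type the ranges were -0.0072 to 0.24 for Cdk5r1 1433451_at, -0.0357 to 0.14 for Map2k2 1460636_at, -0.0004 to 0.17 for Thrap3 1427408_a_at and -0.0601 to 0.0529 for Thrap3 1452125_at. For rosiglitazone against S273A the ranges were -0.31 to 0.0778 for Map2k2 1460636_at, -0.0576 to 0.0554 for Thrap3 1452125_at and -0.0502 to 0.0183 for Thrap3 1460545_at. The cause of these changes was not tested.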
